A study of Mus musculus with 12 samples.

Results

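H3K27ac was examined by CUT&RUN at 9 genes of mitochondrial dynamics, mitophagy and mitochondrial DNA maintenance in cardiomyocytes (CMs) that lacked RIP140 (KO) and in control CMs. The genes were Mfn1, Mfn2 and Opa1 (fusion), Dnm1l (fission), Pink1, Bnip3, Bnip3l and Fundc1 (mitophagy) and Tfam (mitochondrial DNA packaging). They were chosen by name, with earlier results of these data known, out of 21938 protein-coding genes of GENCODE M21. Each gene was given the H3K27ac-enriched regions that overlapped its gene body extended by 5 kb on each side, which yielded 37 of 99275 regions, 17 of 53754 in the control list and 20 of 45521 in the KO list. At 7 of the 9 genes a region lay over the transcription start site (TSS) in both lists. The exceptions were Tfam, which had no region in control CMs and 1 region over its TSS in KO CMs, and Bnip3l, whose first region began downstream of the TSS in control CMs and spanned it in KO CMs. The region over the TSS of Pink1 was 1.4-fold longer in KO CMs, and Fundc1 had a region at its 3' end in control CMs that had no counterpart in KO CMs.

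Mitochondria of the heart join and divide. The mitofusins Mfn1 and Mfn2 join the outer membranes and Opa1 the inner membranes, and Drp1, the GTPase encoded by Dnm1l, constricts mitochondria until they divide. Damaged mitochondria are removed by mitophagy, which is started either by the kinase Pink1 or by receptors of the outer membrane that bind the autophagy machinery directly, namely Bnip3, Nix (encoded by Bnip3l) and Fundc1. Tfam packages mitochondrial DNA and is needed to transcribe and copy it. RIP140, encoded by Nrip1, is a corepressor of nuclear receptors, among them the estrogen-related receptors (ERRs), which control many genes of mitochondrial metabolism. H3K27ac, an acetylated form of histone H3, is found at active promoters and enhancers.

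Control CMs carried the genotype Nrip1 f/f Cre-, and KO CMs carried Nrip1 f/f Cre+, so the floxed alleles were present in both groups and Cre in KO CMs alone. Cre was driven by Nkx2.5, a gene of the cardiac lineage that is switched on in the embryo, and KO and control mice were littermates. Their age was 10 to 12 weeks, and they were male. With no group that carried Cre on unfloxed alleles, the deletion and the presence of Cre cannot be told apart. Per genotype there were 3 replicates with the H3K27ac antibody and 3 with IgG, of 200000 CMs each, and the study describes them as biological replicates, while the labels do not say whether replicates came from separate mice.

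In CUT&RUN an antibody guides a nuclease to chromatin, and the DNA that is cut free is sequenced. The files used here were 1 list of regions per genotype, which held the start and end of the regions that 2 or 3 of the replicates had in common. These lists gave no read count, no signal and no value for a single replicate, so the depth is unknown, no difference could be tested, and every value below stands without replicate error. The median region was 1846 bp wide in the control list and 2291 bp in the KO list. The last exon of Nrip1, the target of the deletion, was covered over 2904 bp in control CMs and 0 bp in KO CMs. TSSs of all 8 cardiomyocyte marker genes were covered in both lists, as were those of 3 of 6 endothelial genes. No fibroblast, macrophage or neuron marker had a covered TSS in either list. Mural cell genes had 2 of 4 TSSs covered in control CMs and 1 in KO CMs, and hepatocyte genes had 1 of 6 and 2 of 6, and the part of other cells in the results below was not tested.

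The number of regions was similar in both lists for the 9 genes, with a median of 2 regions per gene in each. Of the 17 control regions, 14 overlapped a KO region by at least 1 bp, and of the 20 KO regions 15 overlapped a control region. These 29 shared regions overlapped the other list over 51.3% to 100% of their length, with a median of 91.1%. The remaining regions were present in 1 list only. There were 5 KO-only regions among 20, where 21.5% of all KO regions were KO-only, and 3 control-only regions among 17, where 29.5% of all control regions were control-only. KO-only regions lay at 4 of the 9 genes (Mfn2, Dnm1l, Bnip3 and Tfam), beside 35.2% of the 14443 protein-coding genes that had a region. Control-only regions lay at 3 of the 9 (Mfn1, Bnip3 and Fundc1), beside 39.2% of those genes. With the window extended by 10 kb in place of 5 kb, KO-only regions lay at 7 of the 9, beside 38.9% of genes with a region in that window, and each of the 3 regions added had 2 subpeaks, a count of merged calls that is explained with Mfn1.

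Regions together covered 76097 bp of the windows of the 9 genes in control CMs and 77094 bp in KO CMs, of which 61372 bp were covered in both lists. That common length was 80.6% of the control length and 79.6% of the KO length. Covered length was 1.5-fold or more higher in KO CMs at 1 gene, Tfam, beside 19.8% of all genes with a region, and 1.5-fold or more lower at 1 gene, Fundc1, beside 12.7%. Of all 12989 protein-coding genes covered in both lists, 58.1% had more covered length in KO CMs. Among the 8 of the 9 genes that were covered in both lists, 4 had more covered length in KO CMs and 4 had less. Their median log2 ratio of KO to control was -0.003, compared with 0.08 over the 12989 protein-coding genes covered in both lists, whose quartiles were -0.20 and 0.39. Of the 8 genes, Pink1 and Fundc1 lay outside these quartiles, and Bnip3 lay just outside the lower one.

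**Figure D1:**
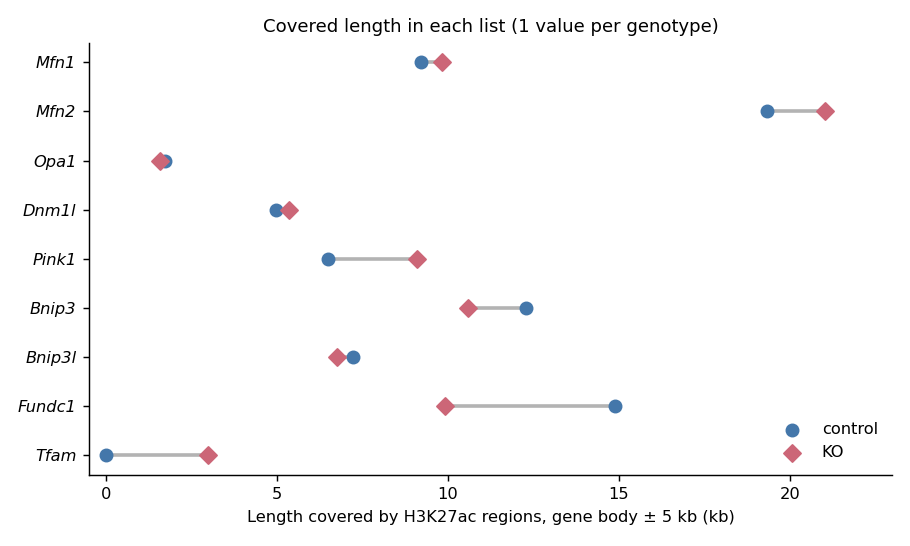
Length (kb) covered by H3K27ac regions within the gene body and 5 kb on each side, for each of the 9 genes, with 1 value per genotype and no error bars because each genotype has 1 list. Circles are control CMs and diamonds KO CMs, and Pink1, Fundc1 and Tfam show the widest gaps relative to their length.

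Most regions over the TSS of these genes were wider than the median of such regions in their list, at 6 of 7 genes in control CMs (all but Opa1) and 7 of 9 in KO CMs (all but Opa1 and Bnip3l). The region over the TSS had a median width of 6501 bp at the 7 genes that had one in control CMs and 4471 bp at the 9 genes in KO CMs, compared with medians of 2555 bp and 2752 bp over all protein-coding genes with a covered TSS. The KO median of the 9 genes takes in Bnip3l (2691 bp) and Tfam (2982 bp), which had no TSS region in control CMs. The medians of the 2 lists are therefore not over the same genes, and their difference does not show a narrowing. The TSS region reached farther downstream than upstream of the TSS in 7 of 7 genes in control CMs and 9 of 9 in KO CMs, whereas 67.9% and 69.8% of all such regions did. The first annotated TSS was covered in the KO list only at 2 of the 9 genes (Bnip3l and Tfam), beside 11.9% of the 10850 protein-coding genes with a TSS covered in either list. It was covered in the control list only at 0 of the 9, beside 5.05%. Of the 7 TSS regions present in both lists, 1 was wider in KO CMs (Pink1) and 6 were narrower. The log2 width ratios of these 6 ran only from -0.172 (Mfn2) to -0.015 (Mfn1). The median of the 7 was -0.05, beside 0.11 over 9007 genes, whose quartiles were -0.16 and 0.45. None of the 7 was 1.5-fold wider, beside 18.7% of all genes, and none was 1.5-fold narrower, beside 7.48%.

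**Figure D2:**
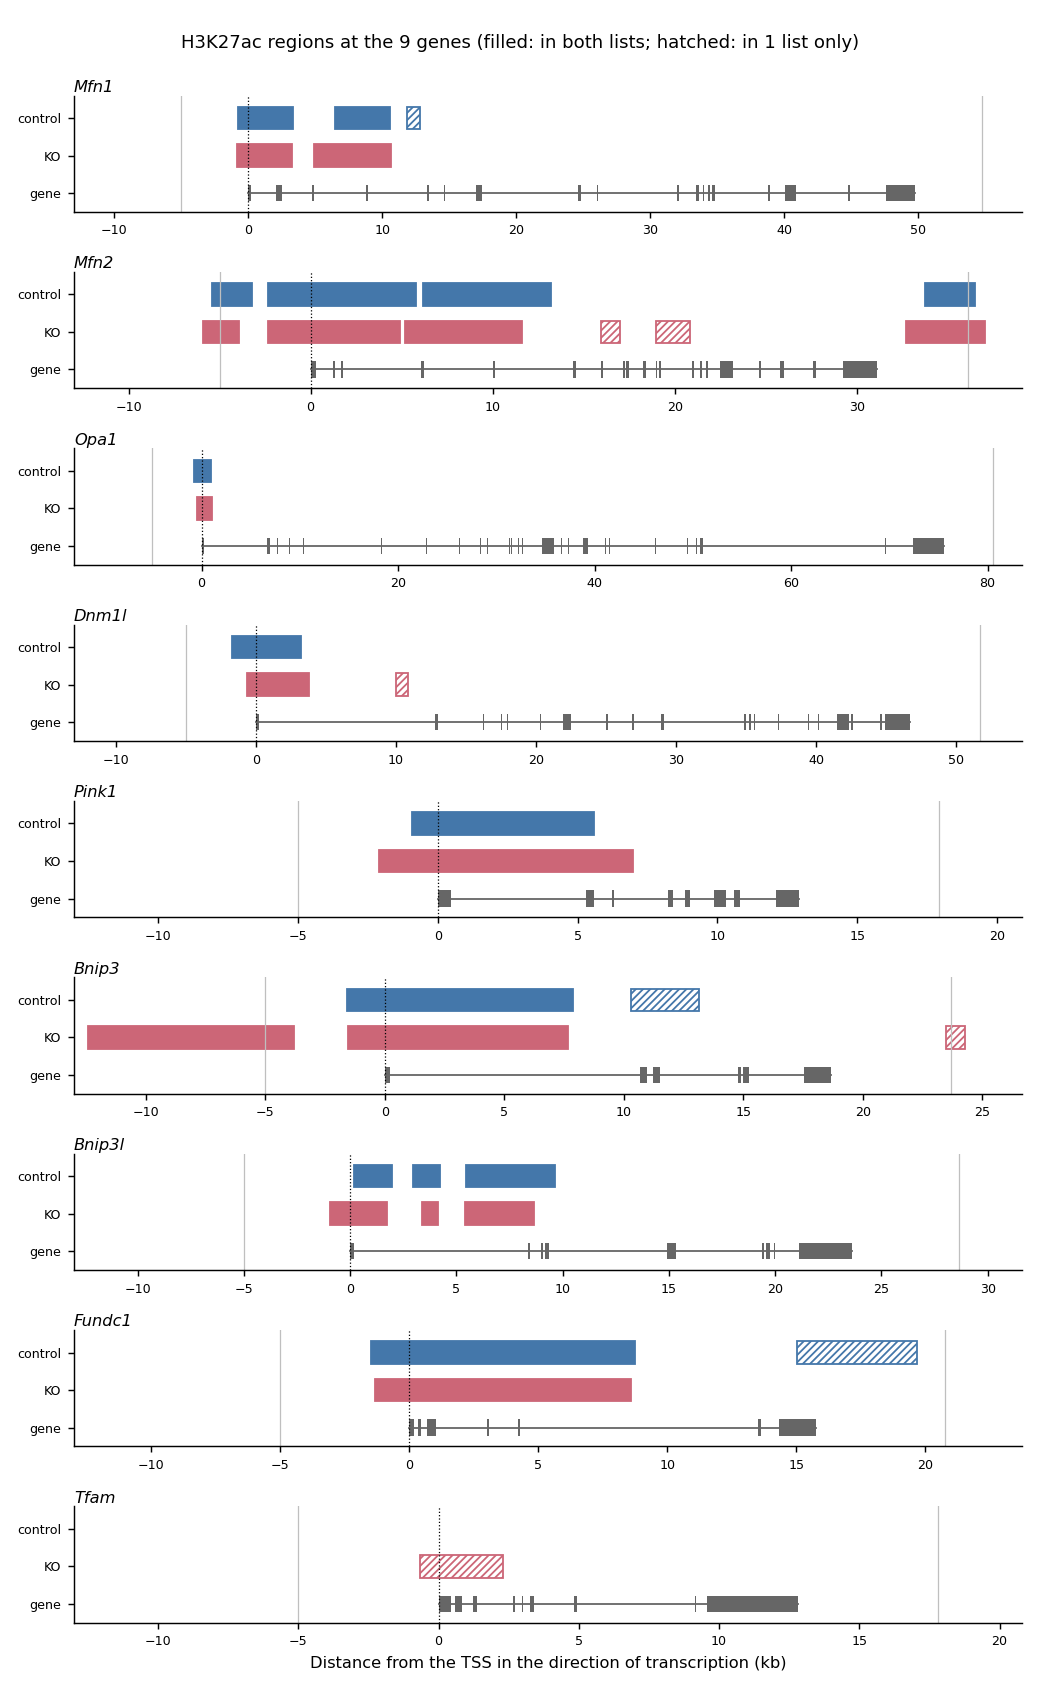
H3K27ac regions at each gene by distance from the TSS in the direction of transcription (kb), with control regions above KO regions and the annotated exons as grey boxes. Filled bars overlap the other list and hatched bars do not, grey vertical lines end the 5 kb window, and the control partner of the upstream Bnip3 region is not drawn because it lies outside the window; 3 hatched bars are control regions and 5 are KO regions.

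All 3 fusion genes had a region over the TSS in both lists, and KO-only regions lay only within Mfn2. Mfn1 (ENSMUSG00000027668, chr3:32529465-32579239 in GRCm38, plus strand) had 3 control regions covering 9217 bp and 2 KO regions covering 9820 bp, a log2 ratio of 0.09. Its TSS region was 4147 bp wide in control CMs and 4104 bp in KO CMs. A region centered in an early intron, which also held 163 bp of exon, was 4098 bp wide in control CMs. It lay wholly within one of 5716 bp in KO CMs, at chr3:32534416-32540131. A further region of 972 bp, within an intron at chr3:32541327-32542298, was present in control CMs only, 1195 bp from the nearest KO region. Among regions that held 3 or more subpeaks, Mfn1 had 4147 bp in control CMs and 9820 bp in KO CMs, a log2 ratio of 1.24. The reason is that the control region of 4098 bp had 2 subpeaks and its KO counterpart 5. Subpeaks are taken here to be the calls of single replicates that were merged into a region, and the number at the end of a region's name to be their count. The header of the lists names a total of subpeaks, but no source states that the number in the name is that total, and values that rest on it hold only if it is so. A region with 2 subpeaks would then hold the fewest calls that the requirement of 2 replicates allows.

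Mfn2 (ENSMUSG00000029020, chr4:147873599-147904704, minus strand) had the most covered length of the 9 genes in both lists, 19323 bp in control CMs and 21027 bp in KO CMs, which was 47.0% and 51.2% of its window and a log2 ratio of 0.12. Its TSS region was 8170 bp wide in control CMs and 7250 bp in KO CMs, wider than 92.1% and 86.9% of all TSS regions. The region that followed it, mostly over introns, measured 6994 bp and 6443 bp, and held the TSS of another annotated gene, Gm13156, in both lists. Both KO-only regions lay farther into the gene. One, at chr4:147887721-147888746 (1026 bp), was centered at -710 bp from an alternative TSS of Mfn2 and lay 2772 bp from the nearest control region. The other, at chr4:147883848-147885706 (1859 bp), was centered in an intron, 5812 bp from the nearest control region. Both had 2 subpeaks. The regions at the downstream end of the window, 2735 bp in control CMs and 4354 bp in KO CMs, held the TSSs of Miip and Fv1, and cannot be assigned to Mfn2 rather than to these neighbors. The same holds for the regions at the upstream end, 2220 bp in control CMs and 1953 bp in KO CMs, which overlapped Plod1. Without the 5 kb extension the log2 ratio of Mfn2 was 0.15, and with 3 or more subpeaks required it was -0.15.

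Opa1 (ENSMUSG00000038084, chr16:29579334-29654884, plus strand) had the shortest TSS region of the 9 genes in both lists, and no other region in its window. The region ran over chr16:29578550-29580259 in control CMs (1710 bp) and chr16:29578821-29580399 in KO CMs (1579 bp), narrower than most TSS regions, since 25.2% and 16.2% of these were narrower still. Both of its ends lay farther downstream in KO CMs, since it reached 784 bp upstream and 925 bp downstream of the TSS in control CMs and 513 bp and 1065 bp in KO CMs. The log2 ratio of covered length was -0.12, and 0.20 when the gene body alone was used. Regions covered 2.0% and 1.8% of this window, the least of any of the 9 genes apart from Tfam in control CMs.

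Dnm1l (ENSMUSG00000022789, chr16:16312230-16358959, minus strand) had 1 region over the TSS in both lists, 4969 bp wide in control CMs and 4471 bp in KO CMs. Its upstream reach was 1728 bp in control CMs and 659 bp in KO CMs, and its downstream reach 3240 bp and 3811 bp. The promoter window, 1000 bp before the TSS and 100 bp after it, was covered over 100% in control CMs and 69.0% in KO CMs. A KO-only region of 876 bp lay in an intron at chr16:16348108-16348983, 6735 bp from the nearest control region, and had 2 subpeaks. With it, covered length was 4969 bp in control CMs and 5347 bp in KO CMs, a log2 ratio of 0.11. Without the 5 kb extension 3241 bp and 4688 bp were covered, a log2 ratio of 0.53. With 3 or more subpeaks required, the control region was not kept and Dnm1l was covered over 4471 bp in KO CMs alone.

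Among the mitophagy genes, Pink1 had more covered length in KO CMs and the 3 receptor genes had less within the 5 kb window. With the 10 kb window Bnip3 and Bnip3l had more in KO CMs (log2 ratios 0.18 and 0.30), and only Fundc1 still had less. Without any extension all 3 receptor genes had less in KO CMs. Pink1 (ENSMUSG00000028756, chr4:138313409-138326307, minus strand) had 1 region over the TSS in each list. It ran over chr4:138320713-138327213 in control CMs (6501 bp) and chr4:138319311-138328414 in KO CMs (9104 bp), and the KO region held the whole control region. In both lists the region also held the TSS of another annotated gene, Gm27646. The region reached 906 bp upstream and 5594 bp downstream of the TSS of Pink1 in control CMs, and 2107 bp and 6996 bp in KO CMs, so that it was longer at both ends. The log2 ratio was 0.49, and 79.7% of the genes covered in both lists had a lower ratio. The region was already wider than 87.6% of TSS regions in control CMs, and wider than 91.5% in KO CMs. The number of subpeaks was 7 in control CMs and 6 in KO CMs, so the wider region did not hold more calls. With the window extended by 10 kb instead of 5 kb, a KO-only region of 1801 bp downstream of the gene was added, and covered length was 6501 bp and 10905 bp, a log2 ratio of 0.75 that passed 1.5-fold.

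Bnip3 (ENSMUSG00000078566, chr7:138890836-138909519, minus strand), a receptor gene known to be induced by hypoxia, had a TSS region of 9433 bp in control CMs and 9202 bp in KO CMs, the KO region lying wholly within the control region. A control-only region of 2848 bp at chr7:138896385-138899232 held an alternative TSS in the gene body, 2616 bp from the nearest KO region. A KO-only region at chr7:138885240-138886030 (791 bp, the narrowest of the 8 regions in 1 list only) lay downstream of the gene and had 195 bp within the window. Both had 2 subpeaks. Upstream of the gene, a KO region of 8610 bp with 7 subpeaks, at chr7:138913330-138921939, reached 1190 bp into the window and held the TSS of another annotated gene, Gm9358. This KO region overlapped a control region of 4600 bp, at chr7:138917525-138922124, that did not reach into the window. Covered length was 12281 bp in control CMs and 10587 bp in KO CMs, a log2 ratio of -0.21. Without the 5 kb extension 10713 bp and 7671 bp were covered, a log2 ratio of -0.48. The ratio turned to 0.18 with the 10 kb window, where 14276 bp and 16183 bp were covered, and to 0.14 with 3 or more subpeaks required.

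Bnip3l (ENSMUSG00000022051, chr14:66985239-67008877, minus strand) had 3 regions in each list, and each overlapped a region of the other list. The region nearest to the TSS ran over chr14:67006920-67008684 in control CMs (1765 bp, 2 subpeaks), starting 193 bp downstream of the TSS. In KO CMs it ran over chr14:67007142-67009832 (2691 bp, 4 subpeaks) and reached 955 bp upstream of the TSS. Coverage of the promoter window was thus 0% in control CMs and 95.9% in KO CMs. The remaining 2 regions, both in the gene body, were shorter in KO CMs, at 4194 bp and 3288 bp for one and 1255 bp and 761 bp for the other. The wider of these 2 held 4 annotated alternative TSSs of Bnip3l in control CMs and 1 in KO CMs. Covered length was 7214 bp in control CMs and 6740 bp in KO CMs, a log2 ratio of -0.10. This ratio was -0.32 without the 5 kb extension, 0.30 with the 10 kb window and -0.64 with 3 or more subpeaks required.

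Fundc1 (ENSMUSG00000025040, chrX:17556564-17572325, minus strand) had the lowest ratio of the 9 genes. Its TSS region was the widest of the 9 in both lists, 10242 bp in control CMs and 9908 bp in KO CMs, and covered the promoter window over 100% in both. Most of the difference lay in a control-only region of 4640 bp at chrX:17552658-17557297, which spanned the 3' end of the gene with 734 bp of exon. It was the widest of the 8 regions in 1 list only, and the only one with 3 subpeaks, and lay 4439 bp from the nearest KO region. Covered length was 14882 bp in control CMs and 9908 bp in KO CMs, a ratio of 0.666 and a log2 ratio of -0.59, which barely passed 1.5-fold and below which lay 8.6% of genes. Without the 5 kb extension, 9476 bp and 8596 bp were covered, a log2 ratio of -0.14 that no longer passed 1.5-fold.

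Tfam (ENSMUSG00000003923, chr10:71225464-71238280, minus strand) was the only one of the 9 genes with no region in control CMs. In KO CMs it had 1 region of 2982 bp at chr10:71235976-71238957, which reached 677 bp upstream and 2304 bp downstream of the TSS, held 3 annotated TSSs of the gene and covered 789 bp of its exons. The promoter window was covered over 0% in control CMs and 70.7% in KO CMs, and the nearest control region lay 10411 bp away. The KO region was wider than 54.3% of all TSS regions in the KO list. It had 2 subpeaks, so that, if the names are read correctly, it was called in 2 of 3 KO replicates. The lists do not tell whether it was called in 1 control replicate or in none. With 3 or more subpeaks required, Tfam had no region in either list.

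**Figure D3:**
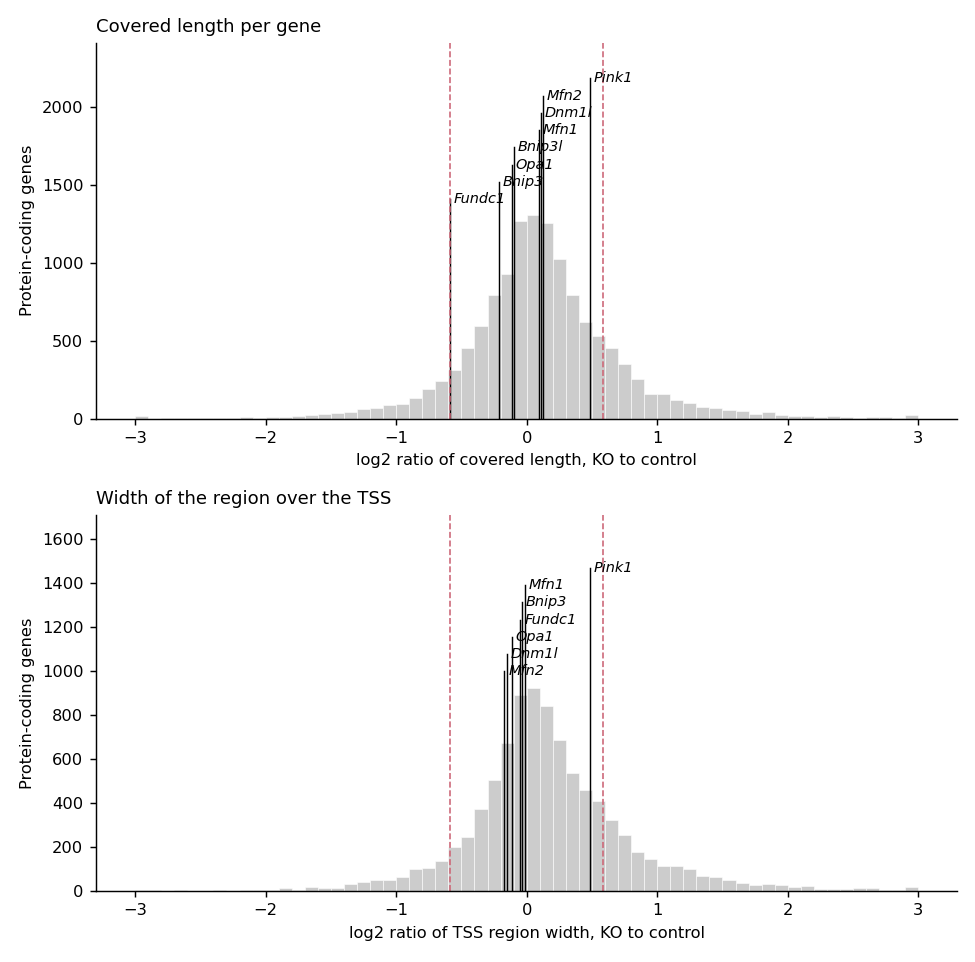
Histograms of the log2 ratio of KO to control over protein-coding genes with values in both lists, for covered length (12989 genes, top) and for the width of the region over the TSS (9007 genes, bottom), with values beyond 3 placed in the end bins. Black lines mark the genes named beside them and dashed lines 1.5-fold; Fundc1 lies at the lower dashed line in the top panel only, at -0.59, and Pink1 is rightmost in both panels, at 0.49.

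Promoter sequences were compared to show what the TSSs of these genes have in common. RefSeq promoters (GRCm38.p6, 250 bases before to 50 bases after the start) were found for 8 of the 9 genes, in 11 entries, and not for Bnip3l. All 300 bases of each entry lay within regions of both lists, except that of Tfam, which lay wholly within the KO region and outside every control region. The 4 entries below belong to the gene covered in KO CMs only (Tfam), the gene with the wider region in KO CMs (Pink1), the gene with the narrowest TSS region (Opa1) and a receptor gene with a wide region in both lists (Bnip3). Each is given in the direction of transcription, which is the minus strand for all but Opa1, and capitals mark a match to CCGGAAGT (ETS factors such as GABP) in Tfam, to GCGCATGCG (NRF1) in Opa1 and to ACGTG (hypoxia-inducible factor, HIF) in Bnip3. No capitals are used in Pink1, where of the motifs searched only GGGCGG (SP1) was found, which is not marked in any of the 4. The positions are chr10:71237995-71238294 for Tfam, chr4:138326247-138326546 for Pink1, chr16:29579084-29579383 for Opa1 and chr7:138909457-138909756 for Bnip3.
Tfam: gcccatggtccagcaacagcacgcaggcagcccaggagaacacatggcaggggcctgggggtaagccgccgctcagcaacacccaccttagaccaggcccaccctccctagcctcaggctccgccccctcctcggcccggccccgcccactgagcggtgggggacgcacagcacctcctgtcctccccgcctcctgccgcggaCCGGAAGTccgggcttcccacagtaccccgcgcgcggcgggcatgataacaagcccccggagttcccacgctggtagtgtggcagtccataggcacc
Pink1: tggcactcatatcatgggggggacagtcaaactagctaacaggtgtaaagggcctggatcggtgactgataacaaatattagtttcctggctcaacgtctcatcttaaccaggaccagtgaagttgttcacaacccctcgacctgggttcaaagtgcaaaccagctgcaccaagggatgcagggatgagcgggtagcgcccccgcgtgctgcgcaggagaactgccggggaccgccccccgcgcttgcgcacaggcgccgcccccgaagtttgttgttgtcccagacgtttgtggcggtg
Opa1: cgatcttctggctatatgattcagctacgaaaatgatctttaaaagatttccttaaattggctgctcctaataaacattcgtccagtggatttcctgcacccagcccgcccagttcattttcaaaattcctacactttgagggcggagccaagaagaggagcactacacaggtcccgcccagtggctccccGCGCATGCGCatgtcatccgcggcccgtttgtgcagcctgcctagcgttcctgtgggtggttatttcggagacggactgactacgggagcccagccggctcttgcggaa
Bnip3: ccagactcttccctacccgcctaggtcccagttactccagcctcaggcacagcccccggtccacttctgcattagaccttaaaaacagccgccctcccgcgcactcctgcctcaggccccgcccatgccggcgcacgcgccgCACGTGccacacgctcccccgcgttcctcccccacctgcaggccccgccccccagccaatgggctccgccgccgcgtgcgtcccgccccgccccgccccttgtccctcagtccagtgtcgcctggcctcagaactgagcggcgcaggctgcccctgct

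All 11 entries had at least as much G and C as the median of the 32851 promoters in the table, with GC contents of 53.0% to 71.7% beside a median of 52.7%, and 12 to 33 CpGs beside a median of 7. Both strands were searched for 9 motifs, and a match is only a match of letters. CCGGAAGT, at position -47 from the start in Tfam, was also found at -44 in Mfn1, and is held by 3.89% of all promoters. GCGCATGCG in Opa1 matched on both strands at -59 and -58, which overlap, and is held by 1.75% of promoters. ACGTG matched on both strands at -108 and -107 in Bnip3, also overlapping, and in entries of Mfn2, and is held by 19.6% of promoters. GGGCGG was found in promoters of Mfn1, Mfn2, Opa1, Dnm1l, Pink1, Bnip3 and Tfam, with 6 matches in Bnip3, and is held by 35.7%. No entry of the 9 genes held TCAAGGTCA (ERR, 0.423% of promoters), its shorter core AAGGTCA (4.72%), the MEF2 motif (0.557%), TGACGTCA (CREB, 1.79%) or GTAAACA (FOXO, 3.65%).

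ERR motifs lay in the regions of 4 genes. TCAAGGTCA was found 4 times in 4 of the 17 control regions and 6 times in 5 of the 20 KO regions, which is 5.2 and 6.9 matches per 100 kb, beside 3.27 and 3.36 in all regions of the lists. These rates rest on few matches, and no difference between them was tested. The 6 sites are shown because ERRs are partners of RIP140, each with 20 bases on either side, on the strand of the match and with the match in capitals. They lie at chr3:32532389-32532397 (plus strand) in Mfn1, at chr4:147899060-147899068 (plus), chr4:147895510-147895518 (plus) and chr4:147887740-147887748 (minus) in Mfn2, at chr4:138324035-138324043 (minus) in Pink1 and at chr7:138920069-138920077 (minus) upstream of Bnip3.
Mfn1: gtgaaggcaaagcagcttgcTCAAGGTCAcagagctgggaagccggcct
Mfn2, first: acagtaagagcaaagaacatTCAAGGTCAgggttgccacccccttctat
Mfn2, second: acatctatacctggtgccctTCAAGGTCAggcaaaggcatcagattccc
Mfn2, the third: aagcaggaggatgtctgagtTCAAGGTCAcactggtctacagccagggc
Pink1: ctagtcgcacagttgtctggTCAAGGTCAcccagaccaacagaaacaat
Bnip3: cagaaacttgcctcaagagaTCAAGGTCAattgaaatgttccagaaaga

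The sites of Mfn1 and Pink1 and the first and second sites of Mfn2 lay in regions of both lists, 2928 bp (Mfn1), 2268 bp (Pink1), 5640 bp and 9190 bp (Mfn2) downstream of the TSS. The third site of Mfn2 lay within the KO-only region near the alternative TSS, 16960 bp from the first TSS. The Bnip3 site, at -10554 bp from the TSS, lay in the wide upstream KO region, and at a position that the partly overlapping control region outside the window also covers. That control region was not assigned to Bnip3, so the site was counted in the KO list only. The Pink1 site lay in the part of its region that both lists share. The MEF2 motif had 1 match in each list, at chr14:67001646-67001655 in the gene body of Bnip3l, which is 1.3 and 1.15 matches per 100 kb beside 3.79 and 3.61 in all regions.

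Of 66 further genes of these processes, 64 had a region, 21 had a KO-only region and 23 a control-only region, beside the 35.2% and 39.2% of all genes given above. Covered length was 1.5-fold or more higher in KO CMs at 9 and lower at 8, beside 19.8% and 12.7% of all genes, and the median log2 ratio over the 61 genes covered in both lists was 0.09. With 3 or more subpeaks required, 20 were higher and 9 lower, beside 38.5% and 18% of the 10903 protein-coding genes with such a region. In the fusion and inner membrane list, of 13 genes 2 were past 1.5-fold higher and 1 lower, with a median of 0.00. Its highest ratio was at Afg3l2, a subunit of the m-AAA protease (2979 bp in control CMs, 5908 bp in KO CMs, log2 ratio 0.99), and its lowest at Oma1, the protease that cleaves Opa1 under stress (4507 bp and 2785 bp, -0.69). Chchd6, a subunit of the complex that shapes cristae, had a region of 1255 bp over its TSS in the KO list only.

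In the fission list, 12 of 14 genes had a region, 3 were past 1.5-fold higher in KO CMs and 2 lower, and the median log2 ratio was -0.02. Mff, an outer membrane receptor of Drp1, had the lowest ratio, with 9558 bp in control CMs and 4263 bp in KO CMs (-1.17). Fis1, an outer membrane protein of the same process, had a region of 1178 bp over its TSS in control CMs only, and its covered length was 5255 bp and 4294 bp (-0.29). Mief1, another Drp1 receptor, had a TSS region of 1774 bp in KO CMs only, with 4910 bp and 8438 bp covered (0.78). Inf2, a formin that acts where mitochondria divide, had a TSS region of 773 bp in KO CMs only, but its covered length was past 1.5-fold lower in KO CMs (7582 bp and 4062 bp, -0.90). Pgam5, a mitochondrial phosphatase, had the highest ratio (1089 bp and 1960 bp, 0.85), and Mief2, a further Drp1 receptor named here after its value was seen, had nearly the same (4056 bp and 7295 bp, 0.85).

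In the mitophagy list, 16 of 23 genes had more covered length in KO CMs and 7 had less, beside 58.1% of all genes covered in both lists that had more, and the median log2 ratio was 0.14, beside 0.08 over all genes. Of the 23 genes, 1 was past 1.5-fold higher, Ulk1, the kinase that starts autophagy (5773 bp and 10508 bp, 0.86). Past 1.5-fold lower were 2, and the lowest ratio was at Map1lc3b, which encodes the autophagosome protein LC3B (5681 bp and 2640 bp, -1.11). Rhot1, an outer membrane GTPase that ties mitochondria to transport and is removed during mitophagy, had a region of 2947 bp over its TSS in the KO list only.

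Among genes for mitochondrial DNA and its expression, 3 of 16 had a TSS covered in 1 list only, beside 17% of all genes with a TSS covered in either list. The 16 include Twnk, whose TSS was covered in neither list, and the 17% leaves such genes out. Of the 16 genes, 3 were past 1.5-fold higher and 3 lower, and the median log2 ratio over the 14 covered in both lists was 0.06. Slirp, which stabilizes mitochondrial mRNAs, had the highest ratio (626 bp and 1658 bp, 1.41), and a TSS region in the KO list only. Nrf1, a transcription factor of nuclear genes for mitochondrial proteins, had the lowest (5522 bp and 3520 bp, -0.65). Polrmt, the mitochondrial RNA polymerase, and Top1mt, the mitochondrial topoisomerase, had TSS regions of 1088 bp and 651 bp in control CMs and no region in KO CMs, so that Tfam and the polymerase it works with were each covered in 1 list, and not in the same one.

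**Figure D4:**
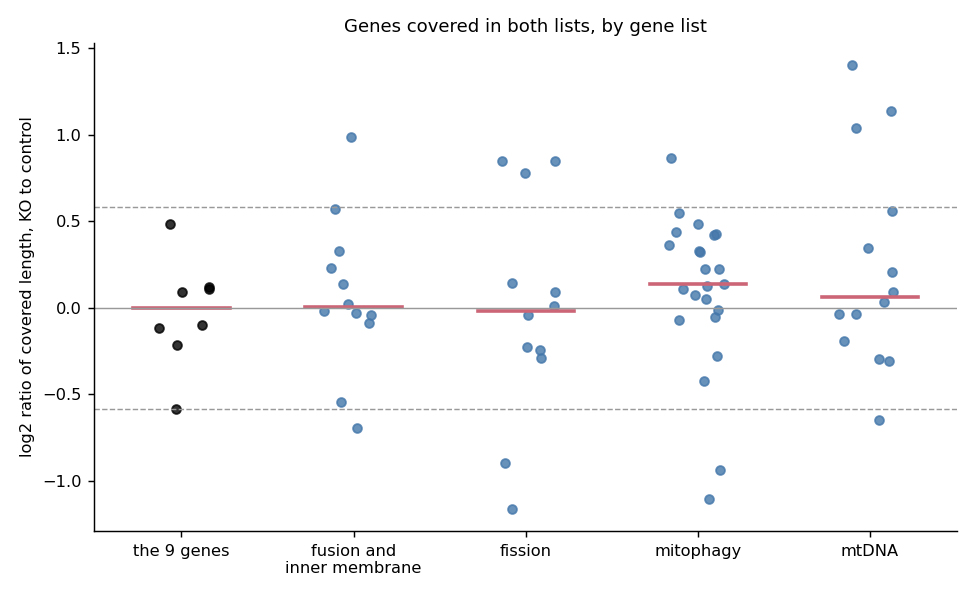
Log2 ratio of covered length, KO to control, for each gene covered in both lists, in the 9 genes (black) and in the 4 lists of further genes (blue), with red bars at the medians and dashed lines at 1.5-fold; horizontal spread within a list has no meaning. Tfam, Pld6, Polrmt and Top1mt, covered in 1 list only, are not drawn, and the medians of the 5 columns lie between -0.02 and 0.14.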

How the data were processed

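H3K27ac CUT&RUN was performed by the authors in CMs of 2 genotypes, with 12 samples in 4 groups by genotype and antibody, as the labels give them. Reads were aligned by the authors with bowtie2 2.4.2 (-N 1; GRCm38), and duplicates were removed with samtools. Homer 4.11.1 (findPeaks, histone style) then called regions per replicate, with IgG as background. They merged the replicates and deposited, per genotype, the positions of regions found in at least 2 of 3. The values used here are therefore positions in bp, and a change of signal within an unchanged region cannot be seen. Starts were taken as 0-based and are printed 1-based. Sequences other than chromosomes 1 to 19, X and Y were left out, with 21 control and 14 KO regions.

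Regions were assigned to genes of GENCODE M21 by an overlap of at least 1 bp with the gene body extended by 5 kb, and were called KO-only or control-only if no region of the other list overlapped them by 1 bp. Covered length is the number of window bases within regions, and 1.5-fold was the limit for counts. The promoter window held 1000 bp before the first TSS and 100 bp after it. Counts of covered TSSs also refer to the first TSS of each gene. Counts are set beside the same count over protein-coding genes. No test was run, since each genotype has 1 value. The text names the 9 genes and, of each list of further genes, those with the highest and the lowest ratio among genes covered in both lists and those with a TSS covered in 1 list only. Pld6 and Mief2 were named after their values were seen. The 9 genes, the lists and these rules were chosen with earlier results of these data known. Alternatives changed the overlap, the gene window and the regions kept. The overlap and gene steps were tested on simulated data. Python 3.11.15, numpy 2.4.6, pandas 2.3.3, pysam 0.24.0 and matplotlib 3.10.9 were used.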

Additional observations from a re-analysis of the deposited data

How the results depend on the processing

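Counts of regions in 1 list only, and of genes with one, were recomputed with other overlap rules (50% of a region or more, 50% of both regions, or gaps of at most 1000 bp allowed). These counts, the numbers of regions, the median ratio and the counts past 1.5-fold were recomputed with other windows (no extension or 10 kb), regions of at least 1000 bp, equal numbers of the widest regions and, chosen after seeing the data, regions with 3 or more subpeaks. Counts within 1.5 times the reported count, and medians within 0.1, were taken as unmoved. TSS widths, promoter coverage and motif counts were not recomputed. The counts of control-only regions and of genes with one did not move under any of these, but the genes changed. With regions of at least 1000 bp they were Bnip3, Bnip3l and Fundc1, and with 3 or more subpeaks Bnip3l and Fundc1. At Bnip3l these were shared regions whose KO counterparts were not kept. Only Fundc1 had a control-only region under every setting. With the 10 kb window there were 8 KO-only regions at 7 of the 9 genes, beside 38.9% of genes with a region in that window. In the same window 2 genes were past 1.5-fold higher (Tfam and Pink1) and the median log2 ratio was 0.188. With no extension the median was 0.124 and 0 genes were past 1.5-fold lower. With regions of at least 1000 bp there were 3 KO-only regions at 2 genes and the median was -0.134. With 3 or more subpeaks, 9 control and 11 KO regions were left at the 9 genes, of which 3 were KO-only. None of these was among the 5 KO-only regions reported above, which all had 2 subpeaks. The 3 lay at Mfn1, Dnm1l and Bnip3l, and were shared regions whose control counterparts, with 2 subpeaks, were not kept. Under this setting 2 genes were higher (Mfn1 and Dnm1l) and 2 lower (Fundc1 and Bnip3l), and the median was -0.115. Of the further genes, 20 were higher in place of 9, against 9 lower in place of 8. The sign of the median therefore depends on the window and on the regions kept. The overlap rules moved none of the counts recomputed with them, and equal numbers of the widest regions moved no result. Requiring a width or a number of subpeaks leaves fewer regions by construction.

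No paired analysis was possible because each genotype has 1 merged list with no replicate values. For the same reason no replicate was left out in turn. The lists do not give whether a region in 1 list only was called in 1 replicate of the other genotype. If subpeaks are read correctly from the names, 7 of the 8 such regions at the 9 genes had 2 subpeaks, as did 87.8% of all KO-only and 94.3% of all control-only regions, compared with 53.6% and 58.3% of shared ones.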

Other observations

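Between 5 kb and 10 kb from the 9 genes, 3 further KO-only regions were found, and each had 2 subpeaks. They lay downstream of Pink1 at chr4:138304065-138305865 (1801 bp), upstream of Mfn1 at chr3:32522084-32523587 (1504 bp) and upstream of Bnip3l at chr14:67016721-67019561 (2841 bp). The median width of all regions at the 9 genes was 4147 bp in control CMs and 3696 bp in KO CMs, and 13 of 17 and 13 of 20 were wider than the median of their list. Regions covered a median of 21.4% of the windows of the 9 genes in control CMs and 20% in KO CMs, beside 11.4% and 12.4% over all genes with a region, whose windows had a median length of 34539 bp beside 33639 bp.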
